A study of Homo sapiens with 9 samples.

Results

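The phosphatidylinositol 3-kinase-related kinases (PIKKs) other than ATR and MTOR were examined together with the proteins that assemble them and with CHEK2, a kinase activated by ATM. The genes were chosen by name and are ATM, PRKDC, SMG1, TRRAP, TELO2, TTI1, TTI2, RUVBL1, RUVBL2 and CHEK2, which makes 10 of the 48162 genes in the deposited tables. All 10 passed the filter on low counts, as did 15776 genes in all. RNA came from SKMEL28 cells, a human melanoma line, grown in DMEM with 5% FBS and transduced with lentivirus carrying short hairpins. The control cells carried a hairpin against GFP (shCont), the shp16 cells a hairpin against p16, and the shp16/shATR cells hairpins against both p16 and ATR. Selection of every culture lasted 3 days in puromycin at 1 µg/ml. Each group has 3 libraries. The sources used here do not say whether these came from separate infections or cultures, so p-values measure only the spread between libraries, which may be technical. The study describes its graph of lanosterol synthase (LSS) mRNA as 1 experiment with 3 technical replicates. Whether that graph came from these libraries is not stated. If so, the p-values below do not reach beyond 1 experiment. Which of the study's ATR hairpins was used is not given in the sources used here.

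PIKKs are very large kinases that sense DNA damage, faulty mRNA or nutrients, and they share a catalytic domain near the end of the protein. Newly made PIKKs are folded and built into complexes by HSP90 with the help of the TTT complex (TELO2, TTI1 and TTI2) and of the R2TP complex, whose ATPases are RUVBL1 and RUVBL2. p16, encoded by CDKN2A, inhibits the cyclin D-dependent kinases and thereby holds back the E2F factors that drive the genes of DNA replication. These data measure mRNA only, not the amount, assembly or phosphorylation of any of these proteins.

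Library totals ranged from 17314662 to 23588174 counts. The melanocyte lineage markers were all present (8 of 8, summed CPM 7769 to 15002), while leukocyte markers summed to at most 0.0519 CPM. Of the fibroblast markers only LUM reached a mean of 5 CPM (list sum 27.8 to 46.9 in the 9 libraries), and of the epithelial markers only CDH1 did. The epithelial list summed to 4.37 to 6.01 CPM in shCont and to 24.6 to 29.9 in the other libraries, and its part in the results was not tested. As the samples are bulk RNA, fewer cells of a type and less RNA per cell cannot be told apart. The biological coefficient of variation was 0.149 with all libraries and 0.0903 without shCont replicate 1, which stood apart from the other shCont libraries. Replicate 1 of shp16 also stood apart from its group, though less. Counts of called genes are given below without either library, and single values where a call or direction turned with one of them.

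The hairpin targets were read first. ATR had 45.9, 93.5 and 96.4 CPM (counts scaled to a common library size by the TMM method of edgeR) in shCont replicates 1, 2 and 3, 93.5, 83.4 and 85.6 in shp16, and 39.9, 40.0 and 41.0 in shp16/shATR. It was lower in shp16/shATR than in shp16 by a log2 fold change of −1.12 (SE 0.22, adjusted p = 0.0128 in the quasi-likelihood test of edgeR), a call lost without shp16 replicate 1 (adjusted p = 0.0554) or without any 1 of the shp16/shATR libraries (up to 0.0707). Every shp16/shATR library lay below every shp16 library. Against shCont, ATR in shp16/shATR differed by −0.96 (SE 0.22, adjusted p = 0.0083). That call held in all 9 fits with 1 library left out (up to 0.0366). CDKN2A was at 103 to 162 CPM in shCont and 78.1 to 99.9 in shp16, with a log2 fold change of −0.48 (SE 0.16, adjusted p = 0.0723), which missed the threshold of 0.05. It passed in 1 of 9 fits with 1 library left out, that without shCont replicate 3 (adjusted p = 0.0300), and was at −0.26 (adjusted p = 0.0681) without shCont replicate 1. In shp16/shATR against shCont CDKN2A was lower by −0.57 (SE 0.16, adjusted p = 0.0263), and by −0.35 (adjusted p = 0.0154) without shCont replicate 1, a call lost without any 1 of the shp16/shATR libraries (up to 0.0923). CDKN2A also encodes ARF, and its counts sum both transcripts.

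Promoter sequence of 3 of the genes is shown first, because TTI1 was the 1 gene of the set that passed the test when ATR was targeted, CHEK2 passed beside it when shCont replicate 1 was left out, and the start of ATM lies beside that of another gene. The sequences are the 250 bases upstream of the RefSeq start in GRCh38.p14, written 5′ to 3′ on the strand of the gene. The windows are chr20:38033457-38033706 on the minus strand for TTI1, chr22:28741821-28742070 on the minus strand for CHEK2 and chr11:108222817-108223066 on the plus strand for ATM. Capitals mark a match to the E2F motif TTTNNCGC, in which each N is C or G, searched on both strands.
TTI1: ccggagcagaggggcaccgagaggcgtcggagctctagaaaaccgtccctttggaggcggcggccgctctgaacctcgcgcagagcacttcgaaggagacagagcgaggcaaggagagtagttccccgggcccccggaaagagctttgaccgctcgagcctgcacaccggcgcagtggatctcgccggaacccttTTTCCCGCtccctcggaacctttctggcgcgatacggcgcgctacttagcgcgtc
CHEK2: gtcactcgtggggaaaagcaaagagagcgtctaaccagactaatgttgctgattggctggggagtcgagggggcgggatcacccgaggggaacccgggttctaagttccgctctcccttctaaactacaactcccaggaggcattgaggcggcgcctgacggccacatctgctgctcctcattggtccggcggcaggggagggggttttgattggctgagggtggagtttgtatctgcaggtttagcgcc
ATM: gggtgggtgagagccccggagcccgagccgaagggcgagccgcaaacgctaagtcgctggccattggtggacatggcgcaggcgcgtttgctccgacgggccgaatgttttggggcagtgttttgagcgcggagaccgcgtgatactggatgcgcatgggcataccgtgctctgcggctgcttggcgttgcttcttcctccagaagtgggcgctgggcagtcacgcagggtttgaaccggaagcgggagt
The RefSeq table held promoters for 7 of the 10 genes, 10 windows in all, each with 250 bases before and 50 after the start. The motif occurred in the window of TTI1 alone, at position −55 from the start. Of all 35116 promoter windows in the table, 1164 (3.31%) held it. A match describes letters in the window and does not show that a factor binds there. Promoters of PRKDC, TRRAP and TTI2 are not shown here.

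Across the set, mRNA levels per length differed widely, and their order was led by the same pair of genes in each group (the plot of FPKM by library). FPKM is the read count scaled by gene length and by library total. In the shp16/shATR libraries, the tightest group, RUVBL2 was the most abundant at 54.9 ± 2.21 FPKM (SD, n = 3 here and below) and PRKDC the next at 49.0 ± 2.91. ATM followed at 25.4 ± 1.96, RUVBL1 at 20.02 ± 0.896 and TELO2 at 17.8 ± 1.07, and the libraries of neighbouring genes in this upper part of the order did not overlap. Below them came SMG1 at 13.99 ± 0.804, TRRAP at 13.2 ± 0.188, TTI1 at 11.8 ± 0.314 and CHEK2 at 10.8 ± 0.906. SMG1 overlapped TRRAP, and TTI1 overlapped CHEK2. TTI2 was the least abundant, at 3.97 ± 0.156 FPKM, below every other gene of the set in all groups. In shp16 cells PRKDC (59.5 ± 9.61) and RUVBL2 (54.9 ± 5.33) overlapped. In shCont most neighbours in the order overlapped.

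**Figure D1:**
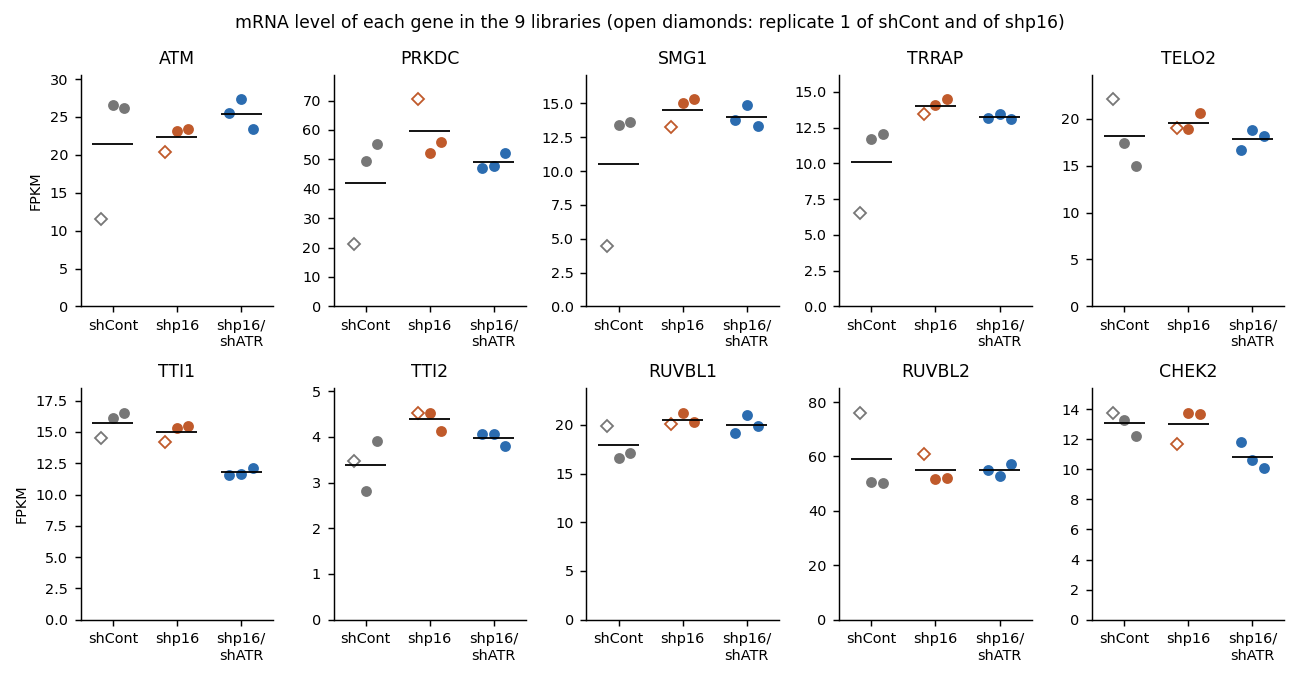
FPKM of the 10 genes (y axes from 0) in the 3 libraries of each group, with a bar at the group mean and open diamonds for replicate 1 of shCont and of shp16. The diamond of shCont lies far below its group for ATM, PRKDC, SMG1 and TRRAP and above it for TELO2, RUVBL1 and RUVBL2, while TTI1 falls to 11.5 to 12.1 FPKM in shp16/shATR.

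Between shp16 and shCont cells, none of the 10 genes passed an adjusted p of 0.05 in edgeR, where 14.8% of all genes tested did. At an unadjusted p under 0.05 there were 2, and DESeq2 and limma on log2 FPKM called 0 at the adjusted threshold. Without shCont replicate 1, 4 genes passed: ATM was lower, and TRRAP, TELO2 and RUVBL1 were higher, against 25.9% of all genes in that fit. Without shp16 replicate 1 the count was 0 of 10, against 8.95% of all genes. In TMM-scaled CPM the libraries did not overlap for SMG1, TRRAP and TTI2, all higher in shp16, which is 3 of 10 genes against 33.6% of all genes tested. In FPKM, a scale added after the data were seen, they did not overlap for TRRAP, TTI2 and RUVBL1, all higher, against 32.7%.

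Between shp16/shATR and shp16 cells, 1 gene passed, TTI1, which was lower. Of all genes tested, 6.22% passed in either direction and 3.49% were lower. Without shCont replicate 1, TTI1 and CHEK2 passed, both lower, against 19.9% of all genes, and without shp16 replicate 1 none did, against 3.13%. In that last fit 2 of the 10 had an unadjusted p under 0.05. In CPM the libraries did not overlap for 4 genes, with ATM higher and TRRAP, TTI1 and CHEK2 lower, against 37.7% of all genes. In FPKM they did not overlap for TELO2, TTI1 and TTI2, all lower, against 37.5%, so that TTI1 alone was separate on both scales.

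Between shp16/shATR and shCont cells TTI1 again was the gene that passed, lower by 24.8%, where 23.6% of all genes passed in either direction and 12.7% were lower. Without shCont replicate 1, TTI1 was lower and RUVBL1 higher, against 33.3% of all genes. Without shp16 replicate 1, TTI1 passed alone, against 24.2%. In CPM the libraries did not overlap for SMG1 and TRRAP (higher) and for TTI1 and CHEK2 (lower), which is 4 of 10 against 41.5% of all genes. In FPKM TRRAP, TTI1 and CHEK2 were separate in the same directions, also against 41.5%. The comparisons share libraries, so their results are not independent of each other. With 3 libraries against 3, an exact two-sided permutation test cannot go below p = 0.1.

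**Figure D2:**
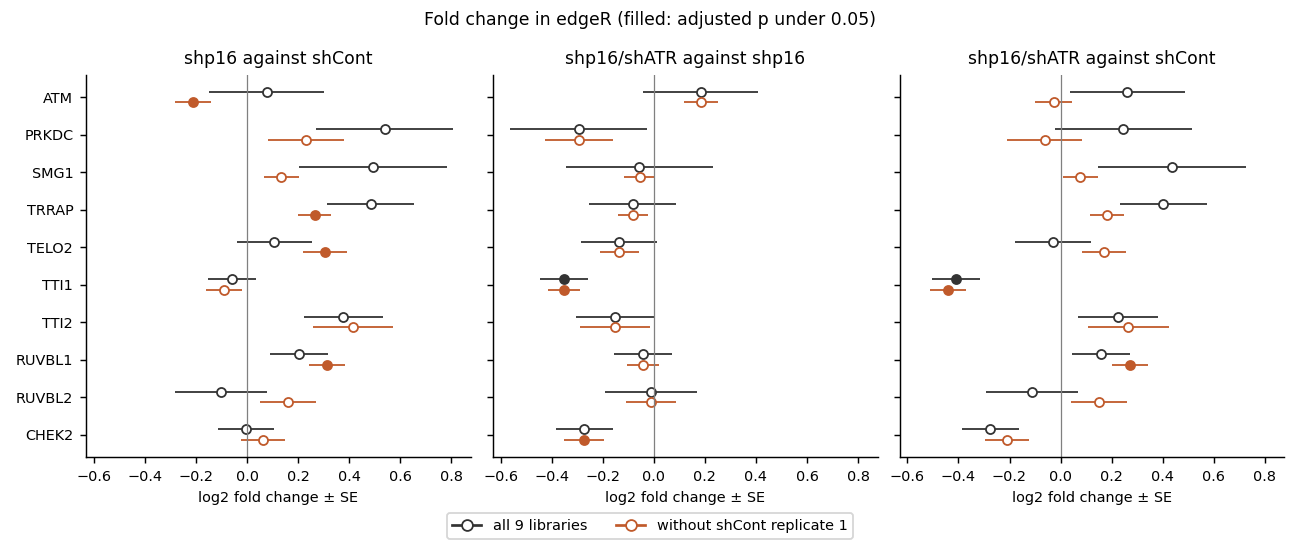
Log2 fold change (x axes) of each gene in the 3 comparisons, with its standard error, from edgeR with all 9 libraries (dark) and without shCont replicate 1 (orange); filled points have an adjusted p under 0.05. With all libraries TTI1 is the filled gene, at −0.35 and −0.41, and without shCont replicate 1 the errors shrink and ATM changes side in shp16 against shCont.

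The large members of the kinase family came first by role. ATM, which signals DNA double-strand breaks, lies on chromosome 11 (chr11:108093211-108239829 in GRCh37, plus strand, exon length 13147 bases). It had 158, 336 and 342 CPM in shCont replicates 1, 2 and 3, 286, 297 and 300 in shp16, and 335, 354 and 313 in libraries a, b and c of shp16/shATR. Replicate 1 of shCont was far below the other shCont libraries, and the direction in shp16 turned with it. With all libraries the log2 fold change in shp16 against shCont was 0.08 (SE 0.22, adjusted p = 0.856), and without shCont replicate 1 it was −0.21 (SE 0.07, adjusted p = 0.0494). In shp16/shATR ATM lay above all shp16 libraries in CPM, while the groups overlapped in FPKM. The log2 fold change was 0.18 (SE 0.22, adjusted p = 0.719), and without shCont replicate 1 the same difference had an SE of 0.06 and an adjusted p of 0.0664.

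PRKDC encodes DNA-PKcs, the catalytic subunit of a kinase that acts with Ku in the joining of broken DNA ends (chr8:48685669-48872743, minus strand, 13508 bases). It had 298, 642 and 738 CPM in shCont, 1014, 688 and 736 in shp16, and 634, 634 and 719 in shp16/shATR. The lowest value came from shCont replicate 1 and the highest from shp16 replicate 1. The log2 fold change in shp16 was 0.54 (SE 0.27, adjusted p = 0.204), 0.23 without shCont replicate 1 and 0.35 without shp16 replicate 1. With no filter on low counts edgeR called PRKDC, SMG1 and TRRAP in this comparison (adjusted p = 0.0011, 0.0042 and 0.0053). For shp16/shATR against shp16 it was −0.29 (SE 0.27, adjusted p = 0.606), and −0.11 without shp16 replicate 1.

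SMG1 phosphorylates UPF1 in nonsense-mediated decay, the pathway that removes mRNAs with premature stop codons (chr16:18816175-18937776, minus strand, 16115 bases). It had 74.7, 208 and 218 CPM in shCont, 227, 236 and 240 in shp16, and 222, 236 and 218 in shp16/shATR. All shp16 libraries lay above all shCont libraries in CPM but not in FPKM, and apart from shCont replicate 1 the 8 libraries spanned only 208 to 240 CPM. The log2 fold change in shp16 was 0.49 (SE 0.29, adjusted p = 0.286), and 0.13 (adjusted p = 0.182) without that library. The copy SMG1P1 was counted separately at 14 to 53 reads per library, 0.891% of the SMG1 reads. How reads that match both were assigned is not given in the sources used here.

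TRRAP, a member of the family that lacks kinase activity and recruits histone acetyltransferase complexes, lies at chr7:98475556-98610866 (plus strand, 12677 bases). It had 86.5, 143 and 152 CPM in shCont, 181, 174 and 179 in shp16, and 167, 168 and 169 in shp16/shATR. In CPM the 3 groups did not overlap, with shp16 the highest and shCont the lowest, while in FPKM shp16 and shp16/shATR overlapped. In shp16 against shCont the log2 fold change was 0.48 (SE 0.17, adjusted p = 0.0802), and it passed at 0.26 (SE 0.07, adjusted p = 0.0124) without shCont replicate 1 and at 0.63 (adjusted p = 0.0355) without shCont replicate 3. It also passed after each library's trend with gene length was removed, at 0.30 (adjusted p = 0.0249). Against shCont the shp16/shATR libraries differed by 0.40 (SE 0.17, adjusted p = 0.113), which passed without shCont replicate 3 (adjusted p = 0.0443). The difference between shp16/shATR and shp16 was −0.08 (SE 0.17, adjusted p = 0.844).

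In shCont replicate 1 the deviation of genes from the rest of the group varied with gene length (the plot of length classes). Relative to the other shCont libraries, SMG1 was at −1.51 on the log2 scale, PRKDC at −1.21, ATM at −1.10 and TRRAP at −0.77. Over all genes tested these values stand at percentiles 2.22, 4.06, 5.23 and 11.7. The 145 genes longer than 12 kb had a median of −0.84 in that library, and within that class the percentiles were 8.97, 22.1, 28.97 and 57.2. Of the shorter mRNAs of the set, RUVBL2 was at 0.69, TELO2 at 0.54 and RUVBL1 at 0.33. Within their own length classes these stood at percentiles 93.1, 85.6 and 89.3. The class of RUVBL2 and TELO2, 2 to 4 kb, had a median of 0.10 in that library. That of RUVBL1, 4 to 8 kb, had a median of −0.28, so RUVBL1 deviated against its class. TTI1 was at −0.08, TTI2 at 0.15 and CHEK2 at 0.20. The medians of the other libraries in the class over 12 kb ranged from −0.065 to 0.49 and were positive for both other shCont libraries, which were compared with a mean that holds replicate 1. Why that library differed was not tested.

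**Figure D3:**
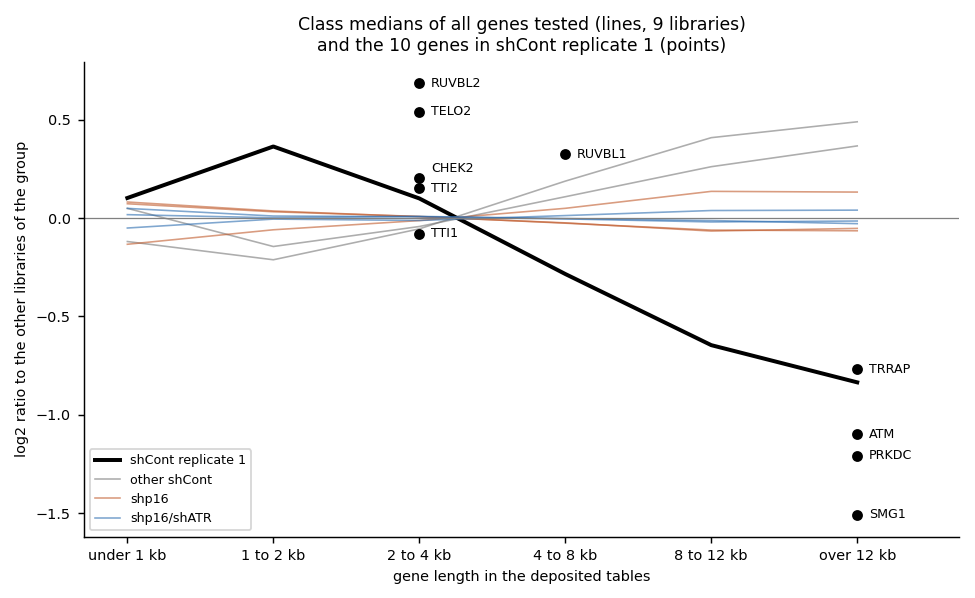
Median log2 ratio of each library to the other libraries of its group (y axis) over all genes tested in 6 classes of gene length (x axis), 1 line per library, with the 10 genes in shCont replicate 1 as points. The line of shCont replicate 1 drops from 0.36 at 1 to 2 kb to −0.84 over 12 kb, where ATM, PRKDC, SMG1 and TRRAP lie.

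GC content also differed among the genes. The longest GENCODE transcript had 39.1% GC for ATM, 43.2% for SMG1, 45.3% for PRKDC and 52.7% for TRRAP, against a median of 48.1% over 15306 genes tested. RUVBL2 had 60.1% and TELO2 66.3%, and these were the genes of the set that stood highest in shCont replicate 1. The order did not follow GC throughout, as TRRAP was at −0.77 in that library and RUVBL1, with 51.4% GC, at 0.33. TTI1 had 48.8%, TTI2 47.1% and CHEK2 49.6%. A link between GC and the deviation of that library was not tested. Across the 9 libraries SMG1 and TRRAP had a Pearson r of 0.97 in log2 CPM, and ATM and SMG1 an r of 0.93. Without shCont replicate 1 the first was 0.80 and the second −0.37 over the remaining 8. The genes most like ATM over the 9 libraries were WDR44, HMCN1, ASH1L, MARCHF6 and RALGAPA1, with r from 0.981 to 0.987. All were lower in shCont replicate 1 than the mean of any group, for example HMCN1 at 55.1 CPM against means of 118, 138 and 159, and these points share library and depth.

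Of the TTT complex, TTI1 was the gene that passed the test (chr20:36611409-36661870, minus strand, 3958 bases). It had 59.7, 61.4 and 64.9 CPM in shCont, 59.8, 59.1 and 59.9 in shp16, and 45.6, 45.5 and 48.9 in shp16/shATR. Every shp16/shATR library lay below the other 6, which spanned 59.1 to 64.9 CPM and included the replicates 1 that stood apart elsewhere. Against shp16 the log2 fold change was −0.35 (SE 0.09, adjusted p = 0.0482), a level lower by 21.7%. This call lay close to the threshold: without shCont replicate 1 its adjusted p was 0.0023, and without any 1 of the other 8 libraries it was 0.0534 to 0.229, so that it was lost, at −0.33 to −0.39. It held in DESeq2 (adjusted p = 0.0127) and was lost under upper-quartile normalization (0.0705), with library size only (0.0637), with no filter on low counts (0.149) and in limma (0.0560). Against shCont the log2 fold change was −0.41 (SE 0.09, adjusted p = 0.0085), lost without library a (adjusted p = 0.0565) or b (0.0504) of shp16/shATR. Between shp16 and shCont TTI1 differed by −0.06 (SE 0.09, adjusted p = 0.726).

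TELO2, a subunit of the TTT complex, lies at chr16:1543345-1560458 (plus strand, 3314 bases). It had 76.2, 55.7 and 49.3 CPM in shCont, 67.3, 61.2 and 66.6 in shp16, and 55.1, 61.2 and 61.1 in shp16/shATR. The shCont libraries bracketed all others. In shp16 against shCont the log2 fold change was 0.11 (SE 0.15, adjusted p = 0.676), and 0.30 (SE 0.09, adjusted p = 0.0225) without shCont replicate 1. Against shp16 the shp16/shATR libraries differed by −0.14 (SE 0.15, adjusted p = 0.677). In FPKM they lay below all shp16 libraries, where 37.5% of all genes tested did not overlap, while in CPM the groups overlapped.

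TTI2, the smallest and rarest of the complex, lies at chr8:33330904-33371119 (minus strand, 2363 bases). It had 8.53, 6.42 and 9.14 CPM in shCont, 11.4, 10.4 and 9.51 in shp16, and 9.57, 9.48 and 9.12 in shp16/shATR, from 125 to 220 reads per library. All shp16 libraries lay above all shCont libraries, by a log2 fold change of 0.38 (SE 0.15, adjusted p = 0.127), which did not pass. Against shp16 the shp16/shATR libraries differed by −0.15 (SE 0.15, adjusted p = 0.652). These too lay below all shp16 libraries in FPKM (37.5% of all genes tested did not overlap) but not in CPM.

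As levels per length, TELO2 stood to TTI1 as 1.52, 1.08 and 0.906 in shCont, 1.34, 1.24 and 1.33 in shp16, and 1.44, 1.61 and 1.49 in shp16/shATR. The ratio was higher in every shp16/shATR library than in every shp16 library, while shCont overlapped both. TTI1 stood to TTI2 as 4.18, 5.71 and 4.24 in shCont, 3.14, 3.38 and 3.76 in shp16, and 2.84, 2.87 and 3.20 in shp16/shATR. The shCont libraries lay above all others in this ratio, and shp16 and shp16/shATR overlapped. These ratios describe mRNA and were not tested.

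**Figure D4:**
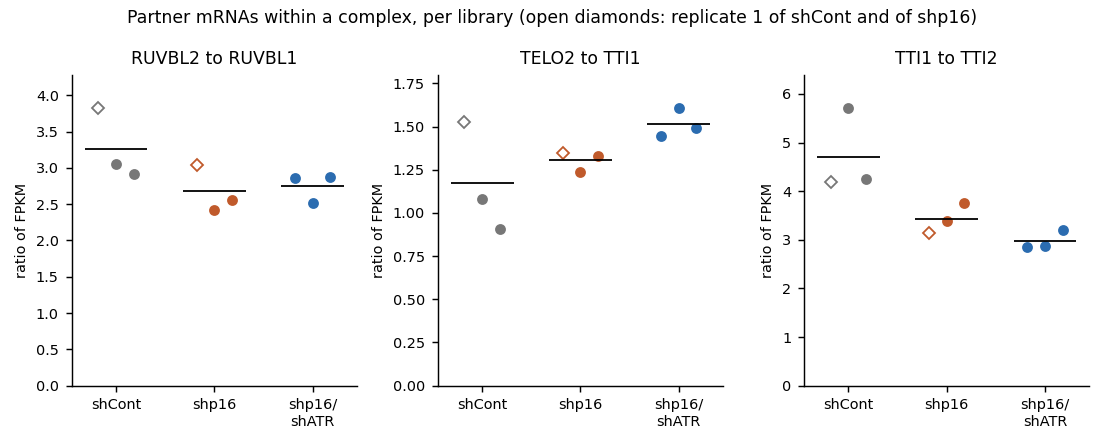
Ratio of FPKM (y axes from 0) between partner mRNAs in each library, with a bar at the group mean and open diamonds for replicate 1 of shCont and of shp16. TELO2 to TTI1 is 1.44 to 1.61 in shp16/shATR and 1.24 to 1.34 in shp16, and RUVBL2 to RUVBL1 is highest in shCont replicate 1, at 3.83.

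RUVBL1 and RUVBL2 form a ring of ATPases that serves R2TP and several chromatin remodellers. RUVBL1 (chr3:127783621-127872757, minus strand, 4062 bases) had 84.2, 65.2 and 69.1 CPM in shCont, 86.9, 84.2 and 80.4 in shp16, and 77.9, 83.9 and 82.3 in shp16/shATR. Apart from shCont replicate 1, the shCont libraries lay below all others. The log2 fold change in shp16 was 0.20 (SE 0.11, adjusted p = 0.264), and 0.31 (SE 0.07, adjusted p = 0.0077) without shCont replicate 1. In shp16/shATR against shCont it was 0.16 (adjusted p = 0.346), and 0.27 (adjusted p = 0.0119) without that library.

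RUVBL2 (chr19:49496705-49519252, plus strand, 2488 bases) had 197, 122 and 124 CPM in shCont, 162, 125 and 126 in shp16, and 136, 129 and 145 in shp16/shATR. Both replicates 1 were high, and the groups overlapped in all comparisons. The log2 fold change in shp16 was −0.10 (SE 0.18, adjusted p = 0.756), and 0.16 (adjusted p = 0.318) without shCont replicate 1. In shp16/shATR against shp16 it was −0.01 (SE 0.18, adjusted p = 0.985), and 0.12 (adjusted p = 0.829) without shp16 replicate 1. Per length, RUVBL2 stood to RUVBL1 as 3.83, 3.05 and 2.92 in shCont, 3.04, 2.42 and 2.56 in shp16, and 2.86, 2.51 and 2.87 in shp16/shATR.

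CHEK2 encodes CHK2, which ATM phosphorylates at DNA breaks (chr22:29083731-29138410, minus strand, 2560 bases). It had 36.7, 32.7 and 31.1 CPM in shCont, 31.9, 34.3 and 34.1 in shp16, and 30.2, 26.7 and 26.2 in shp16/shATR. In CPM the shp16/shATR libraries lay below all others, while in FPKM they overlapped shp16. Between shp16 and shCont, which overlapped on both scales, CHEK2 differed by −0.0026 (SE 0.11, adjusted p = 0.991). Against shp16 the log2 fold change was −0.27 (SE 0.11, adjusted p = 0.190), which did not pass, and it passed at −0.27 (SE 0.08, adjusted p = 0.0287) without shCont replicate 1. Against shCont it was −0.27 (SE 0.11, adjusted p = 0.0945). The copies CHEK2P2, CHEK2P3, CHEK2P4 and CHEK2P5 had 0 reads in all libraries. TTI1 and CHEK2 had a Pearson r of 0.73 over the 9 libraries and 0.75 without shCont replicate 1. Both were lower in shp16/shATR in CPM, so this r includes that difference between groups. Other pairs were higher without shCont replicate 1, such as TRRAP and RUVBL1 at 0.94.

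The remaining kinase of the family, MTOR, had 201, 293 and 313 CPM in shCont, 472, 357 and 356 in shp16, and 325, 319 and 348 in shp16/shATR. All shp16 libraries lay above all others. The groups did not overlap for 33.6% of all genes tested in shp16 against shCont and for 37.7% in shp16/shATR against shp16. For MTOR the latter comparison gave −0.26 (SE 0.17, adjusted p = 0.437), called in 0 of 9 fits with 1 library left out. Without shp16 replicate 1 it gave −0.11 (adjusted p = 0.815). The log2 fold change in shp16 was 0.55 (SE 0.17, adjusted p = 0.0456), a call lost without shCont replicate 2, without any 1 of the 3 shp16 libraries or without any 1 of the 3 shp16/shATR libraries (adjusted p up to 0.159).

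Several of the 10 genes start beside another gene on the opposite strand. PRKDC starts 2 bases from MCM4, which encodes a subunit of the replicative helicase, TTI1 78 bases from RPRD1B, RUVBL2 138 from GYS1, and ATM 158 from NPAT, a regulator of histone genes. MCM4 was at 149 to 243 CPM and was lower in shp16/shATR than in shp16 by −0.48 (SE 0.10, adjusted p = 0.0200), a call lost without any 1 shp16 or shp16/shATR library (adjusted p up to 0.117). PRKDC beside it did not pass in that comparison. RPRD1B differed by −0.20 (SE 0.15, adjusted p = 0.533) where TTI1 passed. GYS1, which encodes muscle glycogen synthase, was lower in shp16 than in shCont by −0.47 (SE 0.11, adjusted p = 0.0184), lost without shp16 replicate 2 or 3 (up to 0.0861), while RUVBL2 differed by −0.10. NPAT differed by −0.03 (SE 0.22, adjusted p = 0.938) in shp16 and by 0.10 (SE 0.22, adjusted p = 0.852) in shp16/shATR against shp16.

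Overlap on the chromosome could touch the counts of 8 of the 10 genes, since the sources used here do not say whether reads were counted by strand. The end of RUVBL1 overlaps SEC61A1, a translocon gene with 417 to 523 CPM, on the opposite strand. MAK16 lies within TTI2 and had 15.4 to 25.7 CPM, above TTI2 itself. In shp16 MAK16 exceeded shCont by 0.46 (SE 0.13, adjusted p = 0.0413), a call that held with shCont replicate 1 or 3 left out and was lost without any other library (adjusted p up to 0.115). EEFSEC, the selenocysteine elongation factor gene, starts 460 bases from RUVBL1 and overlaps its start, and was lower in shp16/shATR than in shCont by −0.61 (SE 0.20, adjusted p = 0.0485), a call that held only without shCont replicate 2 or 3 or shp16 replicate 1 (up to 0.163 otherwise). HSCB starts 391 bases from CHEK2 and overlaps it, at 5.88 to 12.2 CPM, and differed by −0.51 (adjusted p = 0.0624) in the same comparison. IFT140 (17.9 to 26.2 CPM) overlaps the end of TELO2, FUT10 (7.91 to 12.5) that of TTI2 on the same strand, and C11orf65 (0.928 to 2.21) that of ATM, and none of the 3 passed in any comparison. NPAT, named above, overlaps the start of ATM on the opposite strand, at 37.2 to 80.1 CPM, with 21.2% as many reads as ATM. The remaining overlapping ones, AC004893.11, RNF14P3, LHB, RUVBL1-AS1, AP001925.1 and ENSG00000260017, were at most at 2.65 CPM. SMG1-DT starts 409 bases from SMG1 without overlapping it, and was at most at 0.585 CPM. TTI1 and PRKDC overlap no other gene of the table.

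The partners of these kinases were read from 7 lists (the plot of partner genes). Over all genes tested, the median log2 fold change was −0.02 for shp16 against shCont and 0.0021 for shp16/shATR against shp16. The counts below stand beside 14.8% of all genes called in shp16 against shCont (25.9% without shCont replicate 1 and 8.95% without shp16 replicate 1) and 6.22% in shp16/shATR against shp16 (19.9% and 3.13%). Of 14 R2TP and HSP90 assembly factors, 1 rose and 1 fell in shp16, with a list median of −0.0093 (0.10 without shCont replicate 1). Without shCont replicate 1, 1 rose and 2 fell, and without shp16 replicate 1, 1 rose and 1 fell. HSP90AB1, the constitutive HSP90, rose by 0.53 (SE 0.13, adjusted p = 0.0170), a call lost without shCont replicate 2 (adjusted p = 0.0602). URI1, a prefoldin-like partner of R2TP, fell by 0.44 on the log2 scale (SE 0.09, adjusted p = 0.0101), lost without shp16 replicate 2 or 3 (up to 0.0607). Between shp16/shATR and shp16 none of the 14 passed in edgeR, DESeq2 or limma, and 1 had an unadjusted p under 0.05 in edgeR. In the fit without shCont replicate 1, 1 of them fell, and without shp16 replicate 1 none passed (3 at an unadjusted p under 0.05).

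Of 14 activators and chromatin partners of ATM, 1 rose in shp16, and the list median was 0.06. With shCont replicate 1 left out, 1 rose and 1 fell, and without shp16 replicate 1, 1 rose. This was MDC1, the adaptor that binds phosphorylated H2AX at breaks, at 83.4 ± 4.15 CPM in shp16 and 48.2 ± 3.69 in shCont. Its log2 fold change of 0.79 (SE 0.10, adjusted p = 3.83e-04) held in all 9 fits with 1 library left out (0.72 to 0.83). With ATR also targeted the list median against shp16 was −0.21, and none passed in edgeR or limma, 1 passed in DESeq2 and 4 had an unadjusted p under 0.05 in edgeR. When shCont replicate 1 was left out, 4 of the 14 were lower. Of all 16184 genes in that fit, 1776 were lower and 19.9% were called in either direction. Without shp16 replicate 1 none of the 14 was called (1 at an unadjusted p under 0.05).

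Of 12 partners of DNA-PK and end-joining factors, 2 fell in shp16 and the list median was −0.22. Once shCont replicate 1 was left out, 1 rose and 3 fell and the median was −0.10, and without shp16 replicate 1, 1 fell. XRCC4, the scaffold of the end-joining ligase, fell by 0.44 on the log2 scale (SE 0.11, adjusted p = 0.0235), and the call was lost without any 1 shp16 library (up to 0.0842). The other was APLF, a histone-binding end-joining factor named here after its values were seen because its mean was 3.77 CPM. It fell by 1.09 (SE 0.20, adjusted p = 0.0035), in all 9 fits with 1 library left out. With the ATR hairpin added, the median was 0.04 and none passed in edgeR, DESeq2 or limma (11 tested in limma), with 2 at an unadjusted p under 0.05 in edgeR. In the fit without shCont replicate 1, 1 rose, and without shp16 replicate 1 none passed (0 at an unadjusted p under 0.05).

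Of 12 factors of nonsense-mediated decay, none passed in shp16 against shCont in edgeR or limma, 1 passed in DESeq2 and 2 had an unadjusted p under 0.05 in edgeR. With shCont replicate 1 left out, 1 rose and 1 fell, and without shp16 replicate 1 none passed (2 at an unadjusted p under 0.05). In shp16/shATR against shp16, 2 fell, also in DESeq2 and limma, and the median was −0.03. The count was 2 without shCont replicate 1 and 0 without shp16 replicate 1, where 2 had an unadjusted p under 0.05. UPF1, the helicase that SMG1 phosphorylates, was at 129 ± 5.57 CPM in shp16/shATR and 174 ± 8.33 in shp16. Its log2 fold change of −0.43 (SE 0.10, adjusted p = 0.0225) was lost without any 1 shp16 or shp16/shATR library (up to 0.155). SMG5, which brings in the phosphatase that acts on UPF1, fell by 0.56 (SE 0.13, adjusted p = 0.0229), lost without shp16 replicate 1 or 3 or any 1 shp16/shATR library (up to 0.118).

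TRRAP serves the SAGA and TIP60 complexes. Of 17 SAGA subunits, 1 rose and 1 fell in shp16, with a median of 0.03. When shCont replicate 1 was left out, 2 rose and 2 fell, and without shp16 replicate 1 none passed (2 at an unadjusted p under 0.05). DESeq2 called 2 higher and 1 lower, and limma called none. KAT2B, an acetyltransferase, rose by 0.55 (SE 0.15, adjusted p = 0.0294) and SUPT7L fell by 0.54 (SE 0.17, adjusted p = 0.0481). Both calls were lost without shp16 replicate 1 (adjusted p = 0.0677 and 0.144). KAT2B was also lost without shCont replicate 2, shp16 replicate 2 or 3, or library a or b of shp16/shATR (up to 0.0877), and SUPT7L held only without shCont replicate 1 or shp16 replicate 2. Of the same 17, 1 fell in shp16/shATR against shp16 and the median was −0.12. Once shCont replicate 1 was left out, 3 fell, and without shp16 replicate 1 and in limma none did, with 2 at an unadjusted p under 0.05 in each. It was USP22, the SAGA deubiquitinase, which fell by 0.68 (SE 0.17, adjusted p = 0.0347) and held only when shCont replicate 1 or 3 was left out (adjusted p up to 0.165 otherwise).

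Of 15 TIP60 subunits, none passed in shp16 against shCont in edgeR or limma, 3 passed in DESeq2 and 3 had an unadjusted p under 0.05 in edgeR. In shp16/shATR against shp16 none passed in edgeR, 2 did in DESeq2 and 1 in limma, and 2 had an unadjusted p under 0.05 in edgeR. The list medians were 0.05 and 0.08. In the fit without shCont replicate 1, 3 rose and 1 fell in the first comparison and 3 rose in the second. Without shp16 replicate 1 none passed in either (2 and 3 at an unadjusted p under 0.05).

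Of 15 subunits of INO80 and SRCAP, remodellers that hold RUVBL1 and RUVBL2, 2 rose in shp16 and the median was 0.08. With shCont replicate 1 left out, 4 rose, without shp16 replicate 1 none did (3 at an unadjusted p under 0.05), and limma called 1. YY1 rose by 0.40 (SE 0.11, adjusted p = 0.0258) and INO80 by 0.39 (SE 0.11, adjusted p = 0.0417), and both were lost without shp16 replicate 1 (adjusted p = 0.0715 and 0.104). YY1 held only without shCont replicate 1 or 3 or library c of shp16/shATR (up to 0.0799 otherwise), and INO80 only without shCont replicate 1 or 3 (up to 0.126). Against shp16, in shp16/shATR cells 2 actin-related subunits fell, also in DESeq2, in limma and without shp16 replicate 1, and the median was −0.08. When shCont replicate 1 was left out, 4 fell. ACTR6 was at 13.9 ± 1.17 CPM in shp16/shATR and 22.9 ± 2.96 in shp16, a log2 fold change of −0.72 (SE 0.13, adjusted p = 0.0084), lost without library a (adjusted p = 0.0628). ACTR5 fell by 0.47 (SE 0.11, adjusted p = 0.0339), a call that held only without shCont replicate 1 or 3 or shp16 replicate 1 (up to 0.151 otherwise).

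Against shCont, the shp16/shATR cells had 23.6% of all genes called (33.3% without shCont replicate 1 and 24.2% without shp16 replicate 1), and the list genes called there are named after their values were seen. Of the R2TP and HSP90 factors 2 rose and 2 fell: HSP90AB1 was at 0.55 (adjusted p = 0.0086), HSP90AA1, the inducible HSP90, at 0.54 (0.0236), DNAAF10 at −0.73 (0.0095) and URI1 at −0.28 (0.0477). Of the ATM partners 2 rose, MDC1 at 0.47 (0.0059) and TP53BP1 at 0.49 (0.0421), and 3 fell, H2AX at −0.59 (0.0431), BRCA1 at −0.42 (0.0432) and CDC25C at −0.46 (0.0163). APLF was at −1.05 (0.0026) and XRCC4 at −0.40 (0.0257) among the end-joining factors, and UPF1 at −0.40 (0.0106) was the decay factor called. Of the TIP60 subunits MORF4L1 was at 0.56 (0.0012) and EPC2 at 0.53 (0.0366), and of INO80 and SRCAP YY1 was at 0.39 (0.0198) and ACTR6 at −0.89 (5.53e-04). No SAGA subunit passed in edgeR, DESeq2 or limma, with 3 at an unadjusted p under 0.05 in edgeR. SAGA had 1 higher and 4 lower without shCont replicate 1, and 2 lower without shp16 replicate 1. In that first fit, R2TP and HSP90 factors had 3 higher and 2 lower, ATM partners 2 and 5, and end-joining factors 1 and 2. Decay factors had 0 and 1, TIP60 4 and 2, and INO80 and SRCAP 3 and 1. In the second, the R2TP list had 3 and 2, ATM partners 1 and 2, and end joining 0 and 2. Decay had 0 and 1, TIP60 2 and 0, and INO80 and SRCAP 1 and 1.

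With 1 library left out, HSP90AB1, DNAAF10, MDC1, APLF, MORF4L1 and ACTR6 were called in all 9 fits of shp16/shATR against shCont. UPF1 was lost without library a of shp16/shATR (adjusted p = 0.0741), and XRCC4, YY1, CDC25C and EPC2 without any 1 of the shp16/shATR libraries. XRCC4 was also lost without shCont replicate 3, YY1 without shCont replicate 2 and EPC2 without shp16 replicate 2 (up to 0.118 for these 4 genes). HSP90AA1 was lost without shCont replicate 2 or library a or c (up to 0.102). TP53BP1 and H2AX held only with a shCont library left out (up to 0.143 otherwise), and URI1 and BRCA1 only without shCont replicate 1 or shp16 replicate 1 (up to 0.171).

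**Figure D5:**
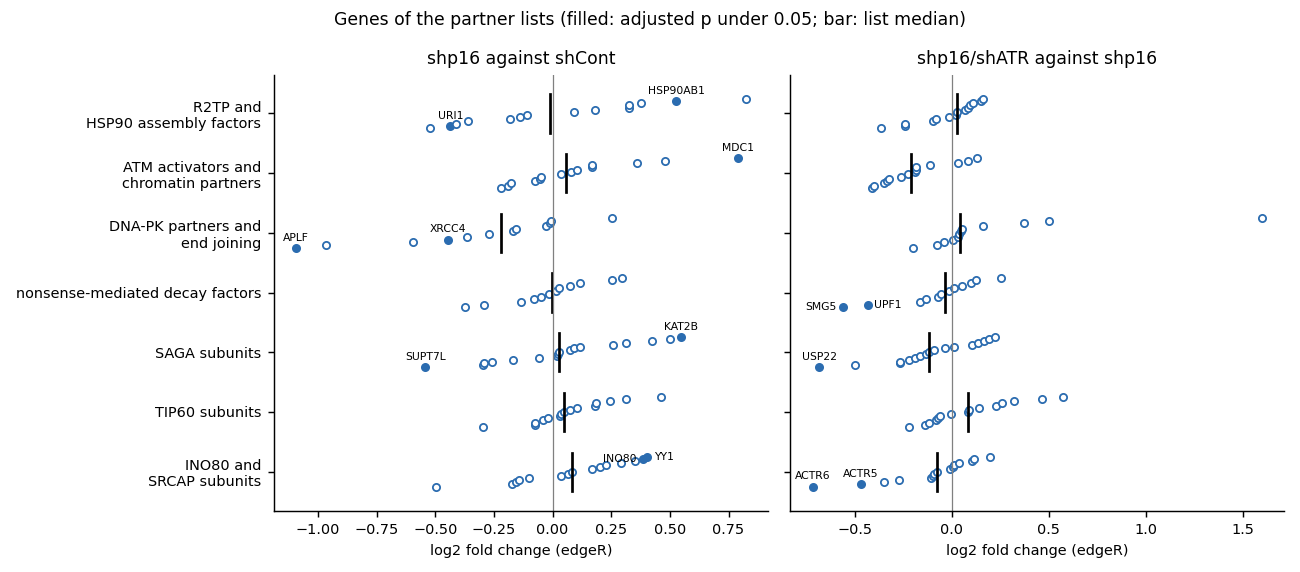
Log2 fold change in edgeR (x axes) of each gene of the 7 lists of partners, for shp16 over shCont (left) and shp16/shATR over shp16 (right), with a bar at the list median and filled points for an adjusted p under 0.05. The named filled points include MDC1 at 0.79 and APLF at −1.09 on the left and ACTR6 at −0.72 on the right.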

How the data were processed

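RNA of SKMEL28 cells was sequenced in 9 libraries, 3 each from shCont, shp16 and shp16/shATR. Values for 48162 genes were deposited by the authors as raw read counts and as FPKM, and dividing a count by gene length and library total gave the deposited FPKM. Library totals were 17314662 to 23588174, which limits precision for the rarest genes. The submitters' processing notes name STAR 2.6.1, DESeq2 and GRCh38, but the coordinates in the deposited tables are those of GRCh37. The counting program, its strand setting and the annotation release are not given in the sources used here. The 3 count columns of shp16/shATR carry a single name and are called a, b and c here. MARCHF6 is listed there under a symbol altered by a spreadsheet and was matched by its Ensembl identifier.

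Counts were normalized with TMM, filtered with filterByExpr (15776 genes) and tested in 1 quasi-likelihood model of all 9 libraries with edgeR 4.0.16 in R 4.3.3, with Benjamini-Hochberg adjustment over all genes tested and a threshold of 0.05. The procedure was tested on simulated data in which no library stood apart and the planted changes were larger than that of TTI1. That test does not cover changes as small as that of TTI1 or the effect of shCont replicate 1. FPKM were used for levels between genes, with SDs and exact permutation tests in python 3.11.15 (numpy 2.4.6, pandas 2.3.3, scipy 1.17.1). GC content came from GENCODE v29 transcripts and promoters from RefSeq.

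The members and lists were chosen with earlier results of these data known. Named are the members, ATR, MTOR and CDKN2A, up to 4 called genes of each list per comparison with a mean of at least 5 CPM, genes that overlap a member or start within 1000 bases of it, copies of SMG1 and CHEK2, and the 5 genes most like ATM. Alternatives were DESeq2 1.42.0, upper-quartile normalization, library size only, other filters on low counts, a fit of the groups compared, limma 3.58.1 on log2 FPKM with 1 or 0.1 added, an adjusted p of 0.01, removal of each library's trend with gene length (spline with 5 degrees of freedom), a replicate block and each library left out.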

Additional observations from a re-analysis of the deposited data

How the results depend on the processing

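Over 22 settings or libraries left out, 640 values of the 10 genes were recomputed: 584 kept direction and side of the threshold, 18 lost the call, 15 gained one and 23 turned direction, of which 1 (ATM) was called. Depth limits TTI2 most, at 125 to 220 reads. Why values changed between settings was not tested.

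For shp16 against shCont, 2339 genes were called, against 1186 with only the 2 groups compared, 1443 in limma with no filter, 994 at an adjusted p of 0.01, 1209 in limma and 423 in edgeR with a replicate block, and 1344 to 4192 with 1 library left out. Of the 10 genes 3 were called with no filter, 1 with the length trend removed and 0 to 4 with 1 library left out. CHEK2 turned to 0.0047 in DESeq2, 0.014 with no filter, 0.069 with the length trend removed and 0.00050 with the replicate block, and ATM to −0.081 with the length trend removed. With 1 library left out the ranges were −0.21 to 0.25 for ATM, −0.020 to 0.30 for TELO2, −0.23 to 0.16 for RUVBL2 and −0.053 to 0.063 for CHEK2, with CHEK2 at 0.033 without shp16 replicate 1.

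For shp16/shATR against shp16, 981 genes were called, against 2878 with only the 2 groups compared, 601 in limma with no filter, 309 at an adjusted p of 0.01, 430 in limma with a replicate block and 292 (without library b of shp16/shATR) to 3223 (without shCont replicate 1) with 1 library left out. Of the 10 genes 2 were called with only the 2 groups compared, 0 with library size only, upper-quartile normalization, no filter, limma (every form, the replicate block included) and an adjusted p of 0.01, and 0 to 2 with 1 library left out. RUVBL2 turned to 0.029 under upper-quartile normalization, 0.00048 with library size only, 0.0038 in limma with 1 added, with no filter and with the replicate block, and 0.0039 with 0.1 added, and ranged from −0.078 to 0.12 with 1 library left out (0.027 without library b).

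For shp16/shATR against shCont, 3724 genes were called, against 1974 at an adjusted p of 0.01 and 2354 to 5395 with 1 library left out. Of the 10 genes 3 were called with no filter, 2 with the length trend removed and 0 to 2 with 1 library left out. The ranges were −0.027 to 0.43 for ATM, −0.062 to 0.49 for PRKDC, −0.16 to 0.17 for TELO2 (0.022 without library a) and −0.23 to 0.15 for RUVBL2.

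The labels do not say whether the replicate numbers pair the libraries. Deviations of FPKM columns with the same number had r from −0.24 to 0.21. With so few libraries, some of which stood apart from their group, these values cannot decide it. The replicate block is given only as an alternative setting.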
